A study of Homo sapiens with 12 samples.

Results

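Transcripts of genes that p53 switches on were followed in HEL cells after JAK2 was reduced with short hairpin RNAs. The set named 9 p53 targets: CDKN1A, MDM2, GADD45A, BTG2, FAS, TP53I3, PHLDA3, ZMAT3 and BBC3. They were read at all probe sets that the platform annotation gives to 1 of these genes alone. The rule found 14 probe sets for 8 genes among 22406 non-control probe sets, 4 each for MDM2 and FAS and 1 each for the other genes. The annotation used names no probe set for BTG2, and neither BTG2 nor the transcript of p53 itself was analysed here. HEL is a human erythroleukaemia line whose JAK2 carries the activating V617F change, so all 4 groups share mutant JAK2. The groups were the JAK2 hairpins Jak2-10 and Jak2-9 and the controls Luc, a hairpin against luciferase, and GFP, which the labels call both a hairpin and a vector control, with 3 arrays in each. Hairpins were delivered by lentivirus, those against JAK2 in a vector with puromycin selection. The comparison asks whether the p53 programme moves when the mutant kinase is lowered.

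p53 is a transcription factor that is held low by constant degradation and is stabilised by DNA damage, nucleolar stress and oncogene signals. It then binds paired copies of a short DNA element near its target genes, whose products stop the cell cycle, help DNA repair, trigger cell death or feed back on p53 itself. Cell line catalogues list HEL as carrying a changed p53 gene, which limits the line as a model of p53 activation, and p53 function was not tested here.

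The start regions of MDM2 and FAS are shown because, among the start regions searched, theirs held a match to the paired p53 element. RefSeq start regions, from 250 bases before to 50 bases after a start, were given for 6 of the 8 measured genes, in 12 windows of 300 bases on GRCh38.p14. They were searched on both strands for the p53 response element, taken as 2 half-sites of 10 bases with at most 2 mismatches in all, the conserved C and G of each half-site intact, and a spacer of at most 13 bases. A match was present in 3 of the 12 windows, 2 overlapping ones of MDM2 that share the same element and 1 of FAS, against 2.93% of 35116 windows of all genes. Each of them held a match with adjacent half-sites, as in 0.285% of all windows. A match is a description of the letters, and binding of p53 was not measured here. GADD45A and PHLDA3 had no window. Sequence outside the windows was not searched, so the other genes cannot be said to lack an element. Both sequences read 5′ to 3′ on the plus strand, with the element in capitals. The MDM2 window is chr12:68808767-68809066 and its element begins 94 bases before the start site. The FAS window is chr10:88991181-88991480 and its marked element begins 122 bases before the start site. A second match in the FAS window begins at the same base and pairs the same first half-site with one 5 bases further on, so it overlaps the marked element.
MDM2: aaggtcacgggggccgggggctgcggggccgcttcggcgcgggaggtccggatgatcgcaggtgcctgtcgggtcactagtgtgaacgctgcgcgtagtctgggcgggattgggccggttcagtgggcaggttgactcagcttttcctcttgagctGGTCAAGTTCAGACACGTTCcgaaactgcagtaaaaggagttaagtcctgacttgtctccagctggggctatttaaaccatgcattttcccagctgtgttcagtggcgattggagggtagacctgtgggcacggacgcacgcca
FAS: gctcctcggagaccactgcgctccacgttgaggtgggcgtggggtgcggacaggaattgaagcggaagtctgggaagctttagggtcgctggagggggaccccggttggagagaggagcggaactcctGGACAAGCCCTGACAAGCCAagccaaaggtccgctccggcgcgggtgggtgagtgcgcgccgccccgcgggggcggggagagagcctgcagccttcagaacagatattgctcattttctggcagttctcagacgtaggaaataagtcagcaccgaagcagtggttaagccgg

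The JAK2 transcript was lower on all 6 knockdown arrays than on any control array, as for 2.13% of all probe sets. This held at both JAK2 probe sets. At the brighter one its log2 intensity was 9.78 to 10.06 with Jak2-10 and 9.37 to 10.08 with Jak2-9, against 10.47 to 10.63 in Luc cells and 10.40 to 10.68 in GFP cells. JAK2 was at 63.1% of control over both hairpins (limma, adjusted p = 0.00260). It was at 67.0% with Jak2-10, which missed the threshold (limma, adjusted p = 0.0556). The Jak2-10 value passed without Jak2-9 replicate 1 (0.00201) or Jak2-9 replicate 3 (0.0269) but on leaving out no other array (adjusted p up to 0.359). With Jak2-9 JAK2 was at 59.3% (limma, adjusted p = 0.00569), a log2 fold change of -0.75. On leaving out 1 array that fold change ran from -0.90 to -0.55 (limma, adjusted p up to 0.0175). At the dimmer probe set JAK2 was at 64.5% with Jak2-10 (limma, adjusted p = 0.329) and at 56.0% with Jak2-9 (0.0412). Jak2-9 replicate 1 stood apart: 592 probe sets lay over 2-fold from its companion arrays, against 0 to 36 on each other array. Many of the results are therefore also given without it. Erythroid and megakaryocytic markers had a median log2 intensity of 10.20 over 12 genes. Markers of other cell types had 4.84 over 14, although DCN and PECAM1 among them were bright at 10.12 and 10.29. No marker of either list passed in knockdown versus control (limma).

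No p53 target passed the threshold after JAK2 knockdown. In knockdown versus control, the mean of both hairpins minus the mean of both controls, 0 of 14 probe sets passed at an adjusted p of 0.05 (limma, Benjamini-Hochberg over all probe sets), against 3.14% of all probe sets. At an unadjusted p under 0.05 there were 0 of 14, against 16% of all. The members' log2 fold changes ran from -0.35 for ZMAT3 to 0.18 for TP53I3. They were above 0 for 9 and below 0 for 5, with a median of 0.01 against 0.03 over all probe sets. The 95% interval lay within 0.5 log2 units of 0 for 12 of the 14, the exceptions being ZMAT3 (-0.76 to 0.05) and TP53I3 (-0.16 to 0.53). With Jak2-10 alone 0 of 14 passed, against 1.37% of all probe sets, and 0 had an unadjusted p under 0.05, against 7.1%. With Jak2-9 alone 0 passed, against 4.27%, and 3 of 14 had an unadjusted p under 0.05, against 22.2% of all probe sets. Nothing in the labels says that replicates came from separate cultures, and the p-values rest on array-to-array spread that may be technical.

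No member had every knockdown array above or every one below all controls, which held for 1.03% and 2.13% of all probe sets. The same was true of Jak2-10 alone, with 2.58% and 3.31% of all probe sets. No member had every Jak2-9 array above all controls (7.48% of all probe sets), and 1 of 14, a FAS probe set, had every Jak2-9 array below them (4.71%). Between the controls, every Luc array lay below every GFP array at 2 of 14 (5.44%) and above at 1 of 14 (4.28%).

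**Figure D1:**
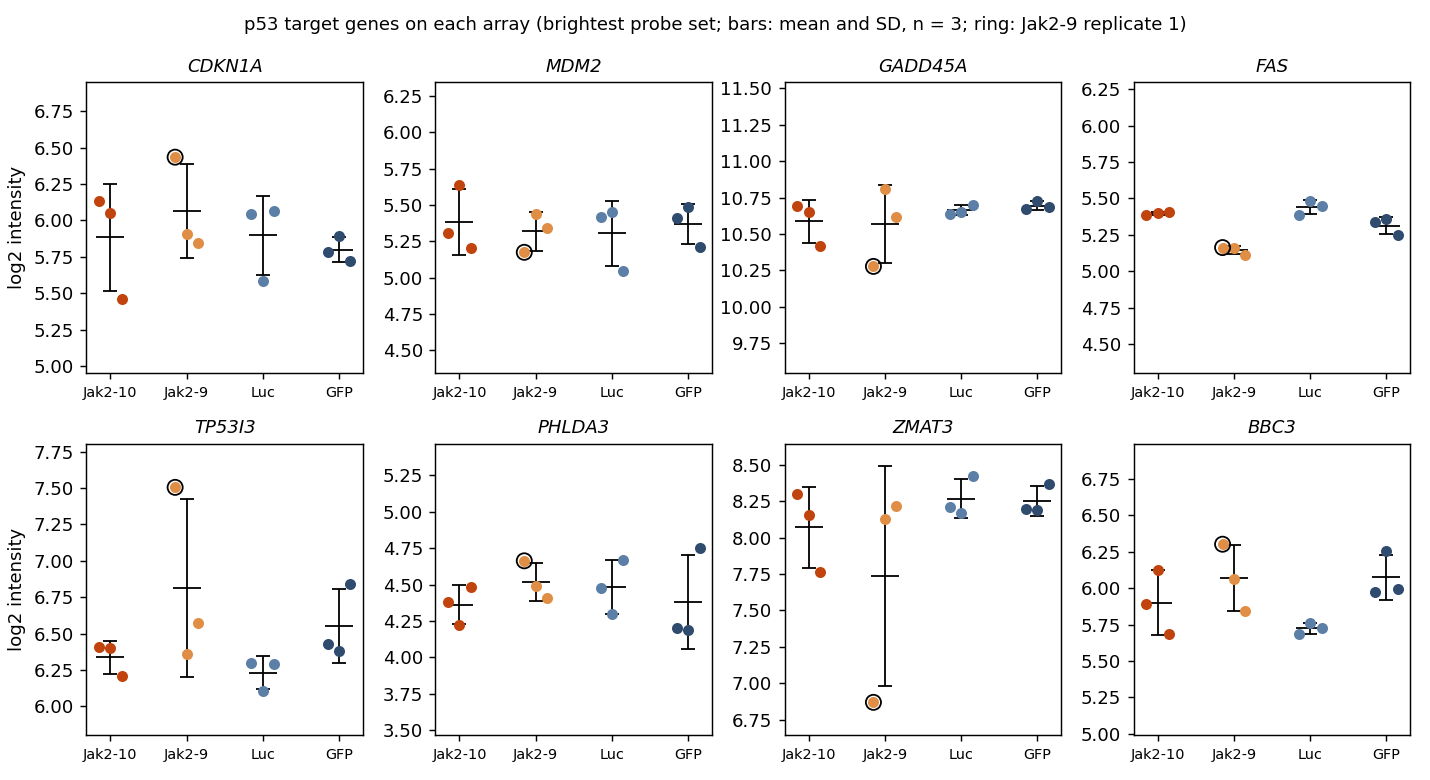
Log2 intensity (y axis) of the brightest probe set of each of the 8 genes on the 12 arrays, by group (x axis). Points are arrays, bars the mean and SD of 3 arrays, and Jak2-9 replicate 1 is ringed. It is the highest of 12 for TP53I3 and the lowest of 12 for ZMAT3, and all Jak2-9 points of FAS lie below those of the other groups.

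The cell cycle arm of the response is represented by CDKN1A and GADD45A. CDKN1A encodes p21, the inhibitor of cyclin-dependent kinases that halts the cycle when p53 is active. Its log2 intensity was 6.13, 6.05 and 5.46 with Jak2-10 and 6.44, 5.91 and 5.85 with Jak2-9, against 6.05, 5.58 and 6.06 in Luc cells and 5.79, 5.89 and 5.72 in GFP cells. The groups overlapped, with the highest value on Jak2-9 replicate 1 and the lowest on Jak2-10 replicate 3. CDKN1A had a log2 fold change of 0.13 ± 0.14 (SE) in knockdown versus control (limma, adjusted p = 0.685). It was at 0.04 with Jak2-10 (95% interval -0.32 to 0.39) and at 0.22 with Jak2-9 (-0.14 to 0.57), or 0.03 (-0.31 to 0.37) without Jak2-9 replicate 1. In RNA from a whole culture, fewer cells expressing a gene and less RNA per cell cannot be told apart.

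GADD45A encodes a small stress protein that binds p21 and the replication clamp and is also induced without p53. Its log2 intensity was 10.69, 10.65 and 10.42 with Jak2-10 and 10.28, 10.81 and 10.61 with Jak2-9, against 10.64, 10.65 and 10.70 in Luc cells and 10.67, 10.73 and 10.69 in GFP cells. The control arrays lay close together, while both the highest and the lowest value were on Jak2-9 arrays. GADD45A had a log2 fold change of -0.10 ± 0.09 (SE) in knockdown versus control (limma, adjusted p = 0.600). Without Jak2-9 replicate 1 it was at -0.03 (95% interval -0.18 to 0.12).

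MDM2 encodes the ubiquitin ligase that marks p53 for degradation, which makes it the feedback arm. Its brightest probe set read 5.31, 5.64 and 5.20 with Jak2-10 and 5.17, 5.44 and 5.34 with Jak2-9, against 5.42, 5.45 and 5.04 in Luc cells and 5.41, 5.48 and 5.21 in GFP cells on the log2 scale. Every group spanned much of the same range. The log2 fold change of MDM2 was 0.01 (95% interval -0.20 to 0.23) in knockdown versus control, 0.05 (-0.21 to 0.31) with Jak2-10 and -0.02 (-0.28 to 0.24) with Jak2-9. The other 3 MDM2 probe sets were at 0.01, 0.05 and 0.02 in knockdown versus control. All 4 were dim, below the median log2 intensity of all probe sets, and their pairwise correlations over the 12 arrays ran from -0.39 to 0.28.

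FAS and BBC3 stand for the death arm. FAS encodes the cell surface death receptor CD95, and its start region held the other element shown above. At its brightest probe set FAS was 5.38, 5.40 and 5.41 with Jak2-10 and 5.16, 5.16 and 5.11 with Jak2-9, against 5.39, 5.48 and 5.45 in Luc cells and 5.34, 5.36 and 5.25 in GFP cells on the log2 scale. Every Jak2-9 array lay below every control array, as for 4.71% of all probe sets, while the Jak2-10 arrays lay among the controls. FAS had a log2 fold change of -0.23 ± 0.07 (SE) with Jak2-9, or 0.852-fold, which did not pass (limma, unadjusted p = 0.00566, adjusted p = 0.0800). Without Jak2-9 replicate 1 it was at -0.24 (limma, adjusted p = 0.169). With Jak2-10 it was at 0.02 (95% interval -0.13 to 0.17). The controls also stood apart at this probe set, every Luc array lying above every GFP array, as for 4.28% of all probe sets. FAS with Jak2-9 was at -0.30 against Luc and at -0.17 against GFP. The other 3 FAS probe sets were at -0.01, -0.17 and -0.19 with Jak2-9 (limma, adjusted p = 0.978, 0.229 and 0.325), and at each of them the Jak2-9 arrays overlapped with the controls. All 4 FAS probe sets were below the median intensity of all probe sets.

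BBC3 encodes PUMA, a BH3-only protein that neutralises the survival members of the BCL2 family. Its log2 intensity was 5.90, 6.13 and 5.68 with Jak2-10 and 6.30, 6.06 and 5.85 with Jak2-9, against 5.69, 5.76 and 5.72 in Luc cells and 5.97, 6.25 and 6.0 in GFP cells. The knockdown arrays spanned both controls, which did not overlap with each other. Luc minus GFP was -0.35 ± 0.14 (SE; limma, unadjusted p = 0.0218, adjusted p = 1.00), and 5.44% of all probe sets had every Luc array below every GFP array. BBC3 in knockdown was at 0.26 against Luc and at -0.09 against GFP, and neither passed (limma, adjusted p = 0.379 and 0.813). Against both controls it was at 0.09 (95% interval -0.12 to 0.29).

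TP53I3, ZMAT3 and PHLDA3 are targets with other roles. TP53I3, or PIG3, encodes a quinone reductase linked to reactive oxygen species. Its log2 intensity was 6.41, 6.40 and 6.21 with Jak2-10 and 7.50, 6.36 and 6.57 with Jak2-9, against 6.30, 6.10 and 6.29 in Luc cells and 6.43, 6.38 and 6.84 in GFP cells. A single array, Jak2-9 replicate 1, was well above the other 11. Every Luc array lay below every GFP array, as for 5.44% of all probe sets. TP53I3 was at 0.42 ± 0.19 (SE) with Jak2-9 and did not pass (limma, adjusted p = 0.222). Without Jak2-9 replicate 1 it was at 0.08 (95% interval -0.18 to 0.33). With Jak2-10 it was at -0.05 (-0.47 to 0.36). With Jak2-9 and all arrays TP53I3 was at 0.58 against Luc alone and at 0.26 against GFP alone. Neither passed (limma, adjusted p = 0.189 and 0.577).

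ZMAT3 encodes a zinc finger protein that binds RNA. Its log2 intensity was 8.30, 8.16 and 7.76 with Jak2-10 and 6.87, 8.13 and 8.22 with Jak2-9, against 8.21, 8.17 and 8.42 in Luc cells and 8.20, 8.19 and 8.37 in GFP cells. Jak2-9 replicate 1 was again the extreme, here the lowest, and Jak2-10 replicate 3 was the next lowest. ZMAT3 was at -0.52 (95% interval -1.02 to -0.03) with Jak2-9 and did not pass (limma, adjusted p = 0.204). It was at -0.09 (-0.35 to 0.18) without that array, and at -0.19 (-0.68 to 0.31) with Jak2-10. PHLDA3 encodes a pleckstrin homology protein that competes with AKT for membrane lipids. It was dim, between 4.18 and 4.75 over the 12 arrays, and was at 0.01 in knockdown versus control (95% interval -0.22 to 0.24).

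Jak2-9 replicate 1 held the largest departures among the members. It lay 1.04 log2 units above the other Jak2-9 arrays for TP53I3 and 1.30 below them for ZMAT3. These were the 2 of 14 member probe sets more than 2-fold away, against 2.64% of all probe sets on that array. CDKN1A followed at 0.56 log2 units above. Without Jak2-9 replicate 1 0 of 14 passed in knockdown versus control (limma; 3.56% of all probe sets), 0 with Jak2-10 (2.19%) and 0 with Jak2-9 (2.19%). At an unadjusted p under 0.05 there were then 0 in knockdown versus control, 0 with Jak2-10 and 1 with Jak2-9, against 14.6%, 11.2% and 12.6% of all probe sets. The members' fold changes with Jak2-9 then lay between -0.24 and 0.25 on the log2 scale.

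**Figure D2:**
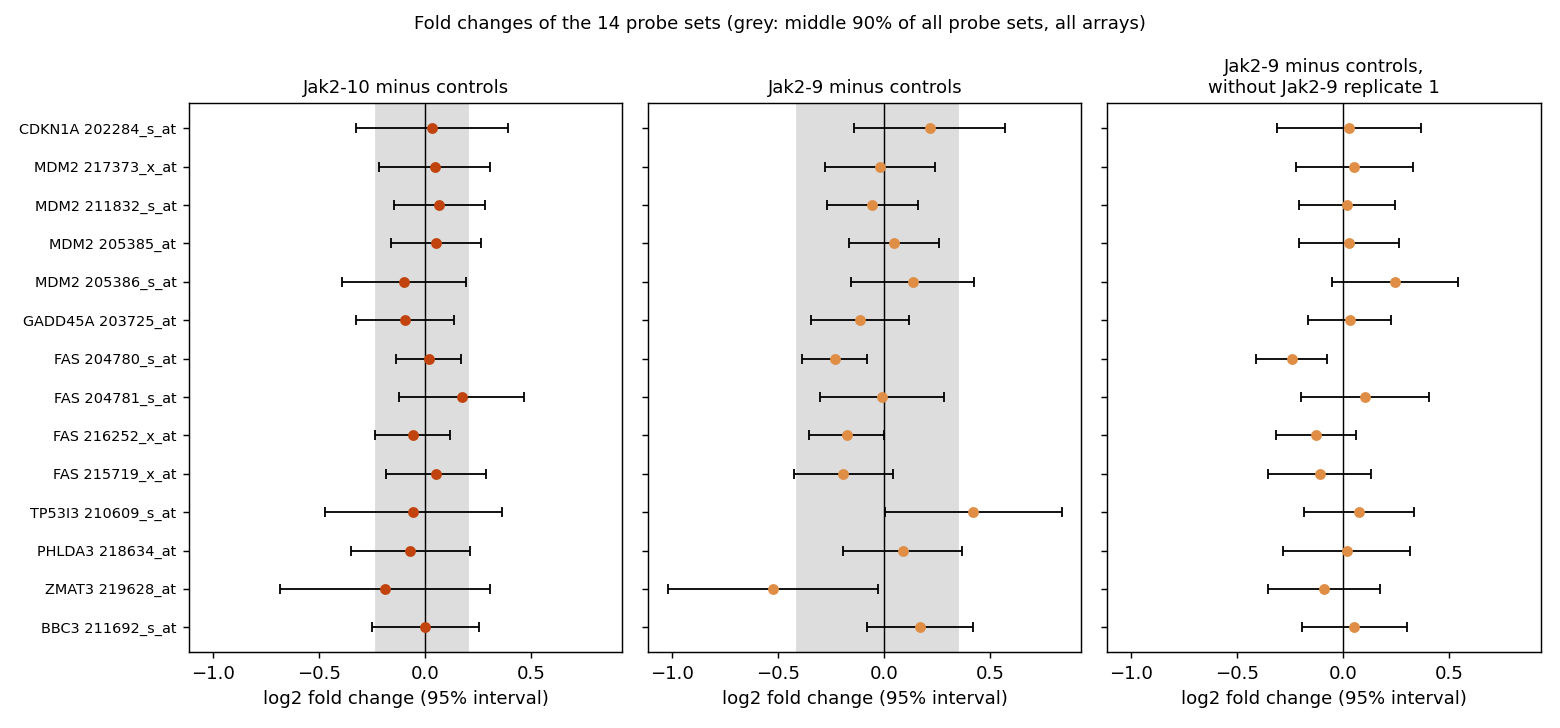
Log2 fold change with its 95% interval (x axis) for each of the 14 probe sets (y axis), for Jak2-10, for Jak2-9 and for Jak2-9 without replicate 1, each minus the mean of the controls. Points are fitted values. The grey band, drawn only for the fits with all arrays, is the middle 90% of all probe sets. Every Jak2-10 interval spans 0, and with Jak2-9 ZMAT3 is at -0.52 with all arrays and at -0.09 without replicate 1.

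The hairpins were also set against each other. In Jak2-10 minus Jak2-9 0 of 14 members and 0% of all probe sets passed (limma), and 1 of 14 had an unadjusted p under 0.05, against 8.56% of all probe sets. This was FAS, at 0.25 ± 0.08 (SE; limma, unadjusted p = 0.00856, adjusted p = 0.572). Every Jak2-10 array lay above every Jak2-9 array for that FAS probe set alone among the members (3.69% of all probe sets), and the reverse order held for 0 of 14 (7.21%). TP53I3 was at -0.47 (95% interval -0.96 to 0.01) and at -0.13 without Jak2-9 replicate 1. The interval of the difference lay within 0.5 log2 units of 0 for 8 of 14 members, and for 13 of 14 without that array, where 2 of 14, FAS and a dim MDM2 probe set, had an unadjusted p under 0.05, against 4.1% of all probe sets. In Luc minus GFP 0 of 14 members and 0% of all probe sets passed (limma), with 1 of 14, BBC3, at an unadjusted p under 0.05, against 2.5% of all probe sets. Leaving out Jak2-9 replicate 1, which enters through the shared spread, gave 2 of 14, BBC3 and TP53I3, against 4.48%.

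The members did not share 1 pattern over the arrays. ZMAT3 and GADD45A had a Pearson r of 0.88 over 12 arrays, and 0.68 without Jak2-9 replicate 1. TP53I3 and ZMAT3 had -0.71 with that array and 0.46 without it. These values describe arrays that share labelling and normalization. Among 5970 brighter genes, those most like CDKN1A were FOSL1, a Fos-family transcription factor, with an r of 0.94, EHBP1L1 with 0.93 and VAMP8, a vesicle fusion protein, with 0.93. Without Jak2-9 replicate 1 they had 0.91, 0.88 and 0.88. Those most like MDM2 were CLCN4, FERMT2 and TGFBRAP1, with 0.80, 0.80 and 0.79.

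The wider p53 programme was read from 59 further target genes, 44 of them measured, each at the brightest of its probe sets. In knockdown versus control 0 rose and 0 fell (limma), against 0.629% and 2.51% of all probe sets. At an unadjusted p under 0.05 there were 4 of 44, against 16%, and the median was 0.04 against 0.03 over all probe sets. The lowest p-values were those of CES2, a carboxylesterase, at 0.19 ± 0.06 (SE; limma, adjusted p = 0.160), and TRIM22, an interferon-responsive protein, at -0.29 ± 0.11 (adjusted p = 0.224). TRIM22 passed without Jak2-9 replicate 2 (-0.39, adjusted p = 0.0367). With Jak2-10 none of the 44 passed (limma), against 1.37% of all probe sets, and 1 had an unadjusted p under 0.05, against 7.1%. This was CES2, at 0.17, followed by PLK2, a polo-like kinase, at -0.16. With Jak2-9 1 of 44 rose, against 1.64% of all probe sets. At an unadjusted p under 0.05 there were 13 of 44, against 22.2%, and without Jak2-9 replicate 1 3, against 12.6%. The one that rose was PLTP, a phospholipid transfer protein, by 1.34-fold (limma, adjusted p = 0.0440). PLTP had log2 intensities of 7.12, 6.67 and 6.85 with Jak2-9, against 6.62, 6.32 and 6.36 in Luc cells and 6.62, 6.48 and 6.33 in GFP cells. Its call held on leaving out Jak2-9 replicate 2 or Luc replicate 1 but no other array, and without Jak2-9 replicate 1 it was at 0.30 (adjusted p = 0.194). In Jak2-10 minus Jak2-9 none of the 44 and 0% of all probe sets passed (limma). At an unadjusted p under 0.05 there were 5 of 44, against 8.56% of all probe sets (3, against 4.1%, without Jak2-9 replicate 1). In that comparison PLTP was at -0.40 and PERP, a membrane protein of p53-dependent death, at 0.33.

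Of 36 listed sensors and regulators of p53, 31 were measured. In knockdown versus control 2 fell and 0 rose (limma), against 2.51% and 0.629% of all probe sets. Without Jak2-9 replicate 1, 2 fell and 1 rose (limma), where 3.56% of all probe sets passed in either direction. Among the 31, 7 had an unadjusted p under 0.05, against 16%, and the median was -0.05 against 0.03 over all probe sets. ATM encodes the kinase that detects double-strand breaks and phosphorylates p53. At its brightest probe set ATM was 8.11, 7.84 and 7.73 with Jak2-10 and 6.50, 7.94 and 7.94 with Jak2-9, against 8.53, 8.82 and 8.74 in Luc cells and 8.76, 8.41 and 8.43 in GFP cells on the log2 scale. All 6 knockdown values lay under the lowest control value, as for 2.13% of all probe sets. Jak2-9 replicate 1 was the lowest of all. ATM fell to 52.2% of control, a log2 fold change of -0.94 ± 0.20 (SE; limma, adjusted p = 0.0192). Without Jak2-9 replicate 1 the log2 fold change of ATM was -0.70 (adjusted p = 0.000216). The other ATM probe sets also passed, at -0.47 and -0.94 (limma, adjusted p = 0.0121 and 0.0192). At the former the arrays overlapped narrowly, with knockdown values up to 7.72 and control values from 7.70. The call of the brightest was lost, at log2 fold changes of -0.93 to -0.88, without GFP replicate 1 (adjusted p = 0.0643), Jak2-10 replicate 2 (0.0540), Jak2-10 replicate 3 (0.0669), Luc replicate 2 (0.0592) or Luc replicate 3 (0.0523). It was also lost with GFP alone as control, at -0.86 (adjusted p = 0.172).

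MDM4, the relative of MDM2 that masks the activating region of p53, also fell in knockdown versus control. Its log2 intensity was 4.94, 4.67 and 4.89 with Jak2-10 and 4.79, 4.76 and 4.80 with Jak2-9, against 5.19, 5.25 and 5.20 in Luc cells and 4.99, 4.93 and 4.96 in GFP cells. The knockdown and control arrays overlapped narrowly, and every Luc array lay above every GFP array, as for 4.28% of all probe sets. MDM4 had a log2 fold change of -0.28 ± 0.06 (SE; limma, adjusted p = 0.0267), and -0.15 against GFP alone (adjusted p = 0.519). The call held on leaving out replicate 1 or 3 of either hairpin but was lost on leaving out any other array (adjusted p up to 0.0830). It was also lost with an intensity trend (0.0539) and with median centring (0.0728).

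By hairpin, 0 of 31 regulators rose and 0 fell with Jak2-10 (limma), against 0.0848% and 1.29% of all probe sets, and 2 had an unadjusted p under 0.05, against 7.1%. ATM was at -0.72 ± 0.25 (SE) with Jak2-10 (limma, adjusted p = 0.364). Its adjusted p (limma) was 0.00101 without Jak2-9 replicate 1, which enters through the spread shared by all groups. The other ATM probe sets were at -0.26 and -0.67 with Jak2-10 (limma, adjusted p = 0.702 and 0.459). MDM4 was at -0.25 with Jak2-10. With Jak2-9 2 rose and 2 fell, against 1.64% and 2.62% of all probe sets. At an unadjusted p under 0.05 (limma) there were 10 of 31, against 22.2%, and 5, against 12.6%, without Jak2-9 replicate 1. ATM fell to 44.9% of control with Jak2-9 (limma, adjusted p = 0.0189), and was at -0.67 on the log2 scale without Jak2-9 replicate 1 (0.00566). MDM4 fell to 80.8% (adjusted p = 0.0437, or 0.0949 without Jak2-9 replicate 1), a call that held on leaving out Jak2-10 replicate 2 or 3 but no other array. PML, the organiser of nuclear bodies where p53 is modified, rose 1.55-fold (limma, adjusted p = 0.0163). PML had log2 intensities of 8.70, 8.15 and 8.13 with Jak2-9, against 7.78, 7.54 and 7.57 in Luc cells and 7.86, 7.56 and 7.88 in GFP cells. It was at 0.45 without Jak2-9 replicate 1, where its call was lost (adjusted p = 0.0544), and 2 of its 8 probe sets passed with all arrays. In knockdown versus control the brightest PML probe set was at 0.42 (limma, adjusted p = 0.0554). A dimmer PML probe set passed there at 0.47 (0.0483), and the others did not. WRAP53, a telomerase and Cajal body protein, rose 1.37-fold with Jak2-9 at its brightest probe set (limma, adjusted p = 0.0419). That call held on leaving out Jak2-9 replicate 2 or 3 or Luc replicate 3 but no other array. The brightest probe set was at 0.29 without Jak2-9 replicate 1 (limma, adjusted p = 0.178). The other WRAP53 probe set also passed with Jak2-9 and all arrays, at 0.69 (limma, adjusted p = 0.0246). No regulator and 0% of all probe sets passed in Jak2-10 minus Jak2-9 (limma). In that comparison 4 of 31 had an unadjusted p under 0.05, against 8.56% of all probe sets. There were 0 of 31, against 4.1%, without Jak2-9 replicate 1 (limma). The 2 regulators of lowest p in that comparison were PML, at -0.43, and PRMT5, an arginine methyltransferase, at -0.27.

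When p21 is induced the DREAM complex forms and represses genes of the cell cycle, so active p53 can lower these genes. Whether their level follows p53 in HEL cells was not tested. Of 30 listed genes 29 were measured. In knockdown versus control 0 rose and 0 fell (limma), against 0.629% and 2.51% of all probe sets. At an unadjusted p under 0.05 there were 5 of 29, against 16% of all probe sets, and the median was 0.02 against 0.03 over all probe sets. The mitotic kinases PLK1, at 0.31 ± 0.09 (SE; limma, adjusted p = 0.0943), and AURKB, at 0.30 ± 0.09 (adjusted p = 0.104), had the lowest p-values, and PLK1 passed without Jak2-9 replicate 3 (0.0480). With Jak2-10 none of the 29 passed (limma), against 1.37% of all probe sets, and 0 had an unadjusted p under 0.05, against 7.1%. Without Jak2-9 replicate 1, 3 of the 29 had an unadjusted p under 0.05 with Jak2-10, against 11.2%. The mitotic kinesin KIF23 was at -0.17 and PLK1 at 0.17 with Jak2-10. With Jak2-9 2 of 29 rose and 0 fell, against 1.64% and 2.62% of all probe sets. At an unadjusted p under 0.05 (limma) there were 11 of 29, against 22.2%, and 5, against 12.6%, without Jak2-9 replicate 1. The median with Jak2-9 was 0.09 against 0.04 over all probe sets, or 0.11 against 0.03 without that array. AURKB rose 1.38-fold (limma, adjusted p = 0.0284) and PLK1 1.36-fold (0.0349). AURKB had log2 intensities of 9.41, 8.98 and 9.01 with Jak2-9, against 8.78, 8.65 and 8.67 in Luc cells and 8.68, 8.44 and 8.74 in GFP cells. Without Jak2-9 replicate 1 AURKB was at 0.33 (limma, adjusted p = 0.121) and PLK1 at 0.27 (0.119). The call of AURKB was also lost without GFP replicate 1 (0.0519), GFP replicate 2 (0.0676), Luc replicate 2 (0.0695) or Luc replicate 3 (0.0592). That of PLK1 held on leaving out Jak2-10 replicate 3 or Jak2-9 replicate 2 or 3 but no other array. In Jak2-10 minus Jak2-9 none of the 29 and 0% of all probe sets passed (limma). At an unadjusted p under 0.05 there were 5 of 29, against 8.56% of all probe sets (0, against 4.1%, without Jak2-9 replicate 1). In that comparison AURKB was at -0.34 and the kinesin KIF2C at -0.21. With GFP alone as control, each call with Jak2-9 in the 3 lists was lost, at adjusted p-values (limma) from 0.0695 for AURKB to 0.338 for MDM4. With Luc alone those of PLTP (limma, adjusted p = 0.0810), PLK1 (0.0770) and AURKB (0.0952) were lost too. With only the arrays compared, ATM (0.0556), PLTP (0.0890), WRAP53 (0.0887), AURKB (0.0564) and PLK1 (0.0750) lost their Jak2-9 calls (limma).

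**Figure D3:**
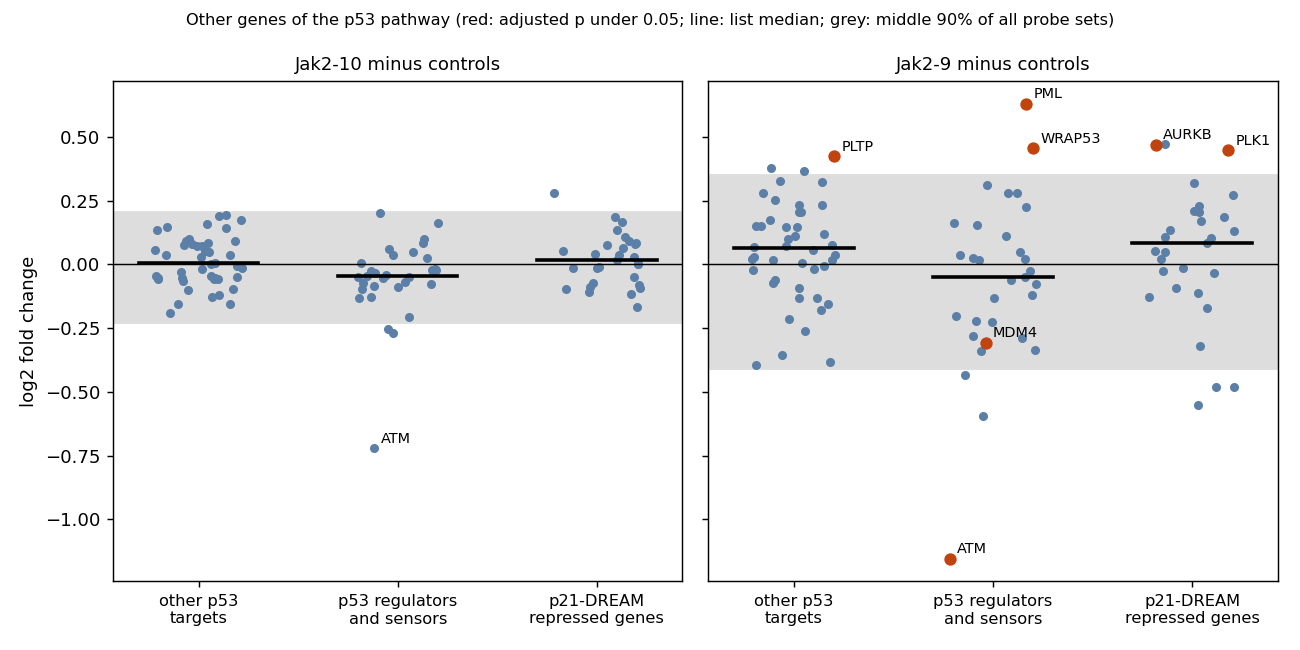
Log2 fold change (y axis) of 44 further p53 targets, 31 regulators and 29 p21-DREAM repressed genes (x axis) with Jak2-10 and with Jak2-9, each minus the mean of the controls. Points are genes at their brightest probe set, red where the adjusted p is under 0.05, black lines are list medians and the grey band is the middle 90% of all probe sets. ATM is at -0.72 with Jak2-10 and at -1.15 with Jak2-9.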

How the data were processed

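The authors deposited 1 table of RMA intensity per probe set for 12 arrays, on a linear scale (11.2 to 36233.5). RMA is named in the submitters' processing notes, with a version not given in the sources used here. Per the labels' protocols, 20 ng of RNA was linearly amplified and labelled with biotin. Intensities were log2-transformed with no pseudocount, and 524 control probe sets were left out. Genes were named from the platform annotation, and all 14 member symbols matched RefSeq. Each of 22406 probe sets was fitted with 4 group means over all 12 arrays (limma 3.58.1, R 4.3.3), with Benjamini-Hochberg adjustment over all of them and a threshold of 0.05. From each further list and comparison the text names up to 4 genes that passed, by size of change, and where none passed the 2 of smallest p. For CDKN1A and MDM2 it names the 3 genes of highest correlation among those above the median intensity. Members and lists were chosen with earlier results of these data known. The fit was tested on simulated data. Alternatives were a replicate block, 2 scalings, a filter on dim probe sets, 2 gene summaries, an intensity trend, array weights, only the arrays compared, single controls and leaving out each array. The number of arrays limits the precision.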

Additional observations from a re-analysis of the deposited data

How the results depend on the processing

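None of the 14 member probe sets passed in any of the 5 comparisons under any alternative run, which gave 1465 further fold changes, 98 of them with another sign than reported and uncalled both ways. The lowest adjusted p (limma) was 0.0559, for FAS with Jak2-9 under array weights. In knockdown versus control the count of 2 regulators became 1 with an intensity trend and 0 with GFP alone as control, and ran from 0 to 4 on leaving out 1 array. The count of 0 p21-DREAM repressed genes became 2 with array weights and ran from 0 to 1 on leaving out 1 array, and that of 0 further targets ran from 0 to 1. The causes were not tested. ZMAT3 with Jak2-9 was at -0.17 with array weights. With the replicate number as a block 0 members and 3 regulators passed in knockdown versus control, the call of MDM4 with Jak2-9 was lost (adjusted p = 0.0528), and 708 of all probe sets passed against 704 without it. The samples share only a number: deviations of same-numbered arrays had correlations of -0.14 to 0.19, and 7 of 12 arrays correlated best with their own number. Signal limits the reading of dim genes, since 9 of 14 members lay below the median intensity of all probe sets.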
